A study of Homo sapiens with 6 samples.

Results

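A2058 cells, a line from a metastatic human melanoma, expressed PEG10 at a high level, and that level was 50.3% lower in wells treated with vitamin C. PEG10 was examined here with 9 other imprinted genes, SGCE, PPP1R9A, PEG3, MEST, GRB10, CDKN1C, NDN, PLAGL1 and MEG3. These 10 genes, of the 60675 gene identifiers counted, were found by matching each symbol to the Ensembl identifiers of the count table. PEG10, SGCE and PPP1R9A lie together at 7q21.3. The RNA-seq data came from 3 control wells and 3 wells given vitamin C at 100 µM for 48 h, as the sample labels have it. A separate treatment protocol among the labels has 50 µM of sodium ascorbate instead. The methods of the study have the dose of the sample labels, which is used here. All wells held the same cell line, so they stand for 1 tumour line, and p-values set a difference against the spread between wells. PEG10 and the other genes were chosen from results of this same comparison, so their levels and differences are given as a description, without a test.

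Imprinted genes are transcribed mainly from the copy inherited from a single parent, and the silent copy is usually marked by DNA methylation laid down in the egg or sperm. Such marks have to survive every round of DNA replication, and enzymes of the TET family, which use vitamin C as a cofactor in their iron-dependent reaction, can oxidize methylated cytosine. PEG10, SGCE, PEG3, MEST, NDN and PLAGL1 are known as paternally expressed genes, while CDKN1C, MEG3 and, in some tissues, PPP1R9A are known as maternally expressed. GRB10 is expressed from different parental copies in different tissues. Read counts per gene do not distinguish the parental copies, so no value below is a measure of imprinting itself, and no DNA methylation was analysed here.

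The genes encode proteins and RNAs of different kinds. PEG10 derives from the gag and pol genes of a retrotransposon and is needed for placental development. SGCE encodes epsilon-sarcoglycan, a membrane protein of the dystrophin-associated complex. PPP1R9A encodes neurabin, an actin-binding scaffold for protein phosphatase 1. GRB10 is an adaptor that restrains insulin and insulin-like growth factor receptors, CDKN1C is the cyclin-dependent kinase inhibitor p57, and NDN encodes necdin, a MAGE family protein. PLAGL1 and PEG3 encode zinc finger proteins, MEST encodes a protein related to hydrolases, and MEG3 is a long non-coding RNA.

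Since the imprint lies in CpG-rich sequence near many of these genes, the 250 bases before an annotated start are shown for 4 of them. These are NDN, PLAGL1, PPP1R9A and MEST, of which MEST was near 0 counts. The sequences are from RefSeq on GRCh38.p14, which gave windows for 6 of the 10 genes, and where a gene had several starts the window with the most CpGs is printed, with ties broken by the share of C and G. Each is written 5′ to 3′ on the strand of the gene, with every CpG in capitals. The windows are chr15:23687306-23687555 on the minus strand for NDN, chr6:144008260-144008509 on the minus strand for PLAGL1, chr7:130491835-130492084 on the plus strand for MEST and chr7:94907344-94907593 on the plus strand for PPP1R9A.
NDN: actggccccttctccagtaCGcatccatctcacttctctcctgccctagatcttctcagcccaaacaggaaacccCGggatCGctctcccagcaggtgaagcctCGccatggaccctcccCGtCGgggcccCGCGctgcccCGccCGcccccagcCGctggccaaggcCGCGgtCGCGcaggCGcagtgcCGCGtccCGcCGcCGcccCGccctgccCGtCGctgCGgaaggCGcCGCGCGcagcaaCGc
PLAGL1: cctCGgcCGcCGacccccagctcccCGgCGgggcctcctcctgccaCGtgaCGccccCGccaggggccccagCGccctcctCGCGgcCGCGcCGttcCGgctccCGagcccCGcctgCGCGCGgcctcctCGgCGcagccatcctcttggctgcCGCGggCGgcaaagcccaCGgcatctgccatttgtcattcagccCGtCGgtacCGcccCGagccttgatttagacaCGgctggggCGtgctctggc
MEST: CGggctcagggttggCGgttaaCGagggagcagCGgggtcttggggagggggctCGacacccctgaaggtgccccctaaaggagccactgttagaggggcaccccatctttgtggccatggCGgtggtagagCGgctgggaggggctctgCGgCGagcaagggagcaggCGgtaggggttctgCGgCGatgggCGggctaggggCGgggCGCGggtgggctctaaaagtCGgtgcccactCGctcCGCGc
PPP1R9A: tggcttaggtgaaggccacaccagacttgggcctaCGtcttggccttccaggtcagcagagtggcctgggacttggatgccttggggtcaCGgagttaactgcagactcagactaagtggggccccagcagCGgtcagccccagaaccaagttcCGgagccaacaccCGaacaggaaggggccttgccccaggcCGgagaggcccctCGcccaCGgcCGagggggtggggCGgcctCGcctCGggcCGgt

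The NDN window holds 30 CpGs and the PLAGL1 window 32, more than 87.6% and 90.5% of all 35114 RefSeq windows of this length. MEST has 20 CpGs and PPP1R9A 13, against a median of 11 over all windows. PLAGL1 has 5 annotated windows with 1 to 32 CpGs, and the one printed also holds the annotated start of HYMAI, a non-coding RNA of the same imprinted locus. The letters TGCCGC, the core recognized by ZFP57 when methylated, were searched on both strands and are in 12.7% of all windows. They occur at 1 position in the NDN window and at 2 in the PLAGL1 window, and not in the printed MEST and PPP1R9A windows. The letters GCCATNTT, a core bound by YY1, are in 3.86% of all windows and in none of the 4 printed. These matches describe the letters only.

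PEG10 was by far the most abundant of the 10 genes. Levels are given in CPM, the share of a library's counts that a gene takes, put on a common scale by TMM factors, which correct for library composition. PEG10 stood at 1709, 1764 and 1732 CPM in control replicates 1, 2 and 3 and at 944, 883 and 763 CPM in vitamin C replicates 1, 2 and 3. The highest vitamin C well therefore lay far below the lowest control well. The mean fell from 1735 ± 27.7 CPM to 863 ± 91.7 CPM (SD, n = 3 in each group), a log2 fold change of −1.01 with a standard error of 0.06 and a 95% confidence interval from −1.14 to −0.87. The interval takes no account of the choice of PEG10 from this same contrast. In raw reads, PEG10 took 71178, 47385 and 27989 counts in the control wells and 24111, 29041 and 15991 in the vitamin C wells. It was the 25th, 23rd and 25th most abundant gene in the control libraries and the 76th, 88th and 120th in the vitamin C libraries. Of all genes tested, PEG10 lost the most CPM, 872. In bulk RNA, fewer cells expressing a gene and less RNA in each cell cannot be told apart.

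The vitamin C wells differed among themselves in PEG10 more than the control wells did. The coefficient of variation was 10.6% over the vitamin C wells and 1.60% over the control wells, while counting error alone would give 0.679% and 0.486%. The lowest PEG10 level belonged to vitamin C replicate 3, which also differed most from the other vitamin C wells across genes. In that library the small nuclear RNA 7SK took 0.945% of counts, against 0.577% to 0.748% in the others, and mitochondrial genes took 0.476%. The mitochondrial share also moved with the treatment, at 0.612%, 0.665% and 0.744% in the control wells and 0.573%, 0.571% and 0.476% in the vitamin C wells. The part of these shares in the result was not tested. Without vitamin C replicate 3 the log2 fold change of PEG10 was −0.92, and over all single libraries left out it ran from −1.08 to −0.92.

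**Figure D1:**
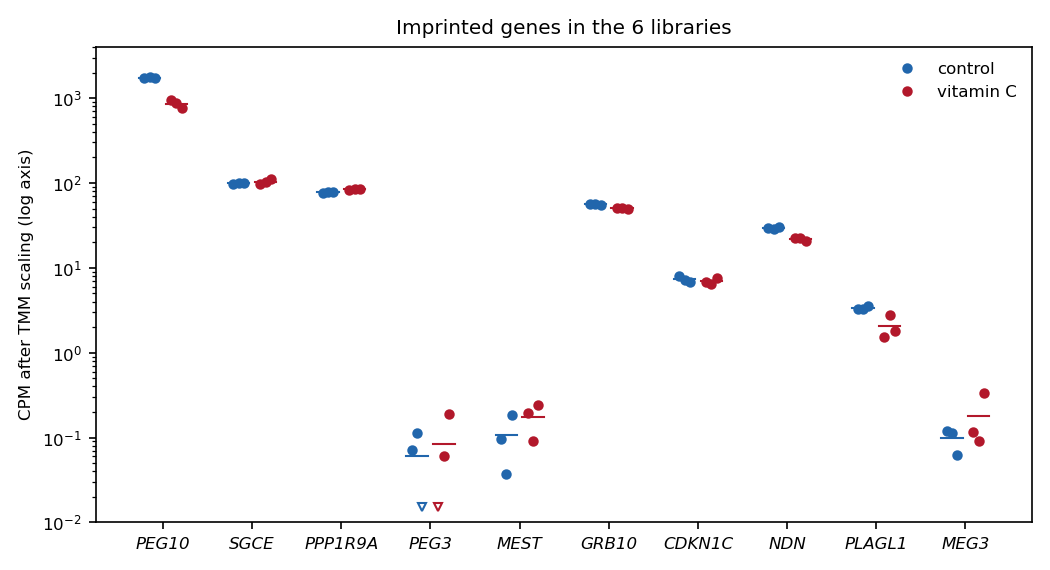
Levels of the 10 imprinted genes, in CPM after TMM scaling on a log axis, with each of the 3 control wells (blue) and 3 vitamin C wells (red) as a point and each group mean as a line. Open triangles mark libraries with 0 counts, and PEG10, NDN, PLAGL1 and GRB10 have all vitamin C points below all control points.

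SGCE starts beside PEG10 on the opposite strand, and the annotated first exons of the pair overlap (PEG10, chr7:94656325-94669695, plus strand; SGCE, chr7:94524204-94656572, minus strand, GRCh38). Only 3.27% of the exon bases of PEG10 and 1.05% of those of SGCE are shared. SGCE stood at 97.9, 100.5 and 99.6 CPM in the control wells and at 98.0, 103.6 and 110.1 CPM in the vitamin C wells. The groups overlapped, with a log2 fold change of 0.06 (SE 0.05, 95% confidence interval from −0.05 to 0.18). The ratio of PEG10 to SGCE counts, which needs no scaling between libraries, was 17.5, 17.6 and 17.4 in the control wells. In the vitamin C wells it was 9.63, 8.52 and 6.93, so the lowest control ratio was above the highest vitamin C ratio. Within the vitamin C wells, the well with the least PEG10 had the most SGCE.

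PPP1R9A, farther along the same chromosome arm (chr7:94907202-95296415, plus strand), stood at 77.1, 79.0 and 78.7 CPM in the control wells. In the vitamin C wells it stood at 83.2, 83.8 and 84.3 CPM. The groups did not overlap, but the difference was small, with a log2 fold change of 0.10 (SE 0.05), and it was not called. PEG10 exceeded PPP1R9A in counts by a ratio of about 22 in each control well and of 11.3, 10.5 and 9.05 in the vitamin C wells. The ratio of SGCE to PPP1R9A was 1.27 in each control well and 1.18, 1.24 and 1.31 in the vitamin C wells, which lay on either side of the control value. Of the 3 members at this locus, PEG10 had the lower level after vitamin C, while SGCE and PPP1R9A did not.

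**Figure D2:**
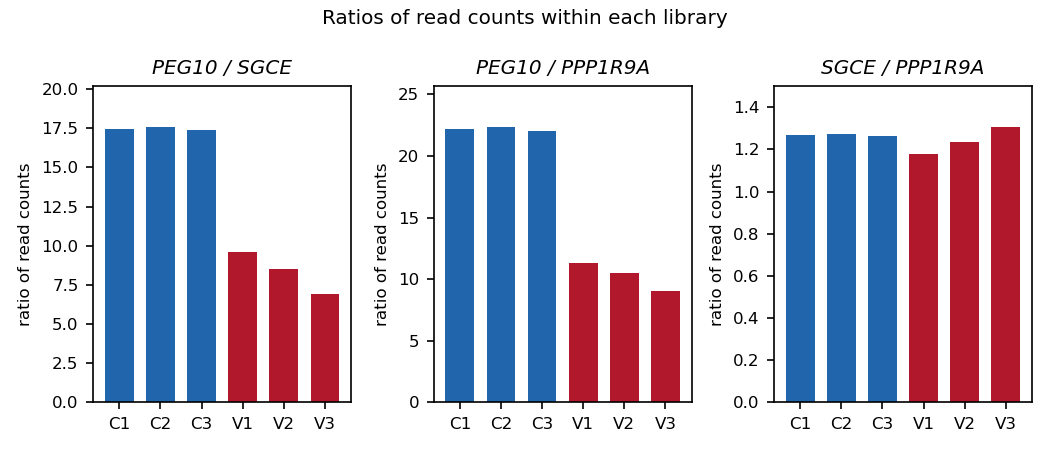
Ratios of read counts between PEG10, SGCE and PPP1R9A in each library, for control replicates 1 to 3 (C1 to C3, blue) and vitamin C replicates 1 to 3 (V1 to V3, red). The ratio of PEG10 to SGCE was 17.4 to 17.6 in control wells and 6.93 to 9.63 in vitamin C wells, while the ratio of SGCE to PPP1R9A ran from 1.18 to 1.31.

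NDN, at 15q11 (chr15:23685400-23687330, minus strand), followed PEG10 in direction with a smaller difference. It stood at 29.6, 28.3 and 30.3 CPM in the control wells and at 22.3, 22.3 and 20.5 CPM in the vitamin C wells. All vitamin C wells were below all control wells, and the mean fell by 26.1% (log2 fold change −0.43, SE 0.07). PLAGL1, at 6q24, stood at 3.27, 3.24 and 3.53 CPM in the control wells and at 1.53, 2.77 and 1.81 CPM in the vitamin C wells. The groups did not overlap, but vitamin C replicate 2 was closer to the control wells than to the other 2 vitamin C wells. The log2 fold change of PLAGL1 was −0.68 (SE 0.21) and became −0.998 without vitamin C replicate 2. PLAGL1 was not called in the edgeR fit of all libraries, and whether it was called depended on the setting. It rested on 38 to 136 counts per library, and 3.31% of its exon bases are shared with HYMAI.

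GRB10, at 7p12, stood at 57.2, 57.2 and 54.9 CPM in the control wells and at 50.9, 51.1 and 49.3 CPM in the vitamin C wells. The groups did not overlap, with a log2 fold change of −0.16 (SE 0.05). CDKN1C, at 11p15, stood at 8.09, 7.19 and 6.75 CPM in the control wells and at 6.77, 6.44 and 7.49 CPM in the vitamin C wells. These values overlapped, with a log2 fold change of −0.11 (SE 0.11).

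PEG3, MEST and MEG3 were at or near the limit of detection in every well and did not pass the filter on low counts. PEG3 had 3, 3 and 0 counts in the control libraries and 0, 2 and 4 in the vitamin C libraries. MEST had 4, 1 and 3 counts and then 5, 3 and 5. MEG3 had 5, 3 and 1 counts and then 3, 3 and 7. No fold is given for these genes, since a difference was not detectable at this depth. A count of 0 allows up to 3 counts, which is 0.186 CPM in control replicate 3 and 0.117 CPM in vitamin C replicate 1. ZIM2 shares 12.9% of the exon bases of PEG3, and genes on the opposite strand share 27.4% of those of MEST, where the source of a read cannot be told apart.

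Of the 10 genes, 7 passed the filter and 2, PEG10 and NDN, were called lower at an adjusted p under 0.05 in edgeR. The background was 833 of 16353 genes called lower, or 5.09%. Since these genes were chosen from this contrast, nothing is read from the count. All vitamin C wells were below all control wells for 4 genes (PEG10, NDN, PLAGL1 and GRB10) and above them for 1 (PPP1R9A), against 14.9% and 15.6% of all genes tested, or 30.6% in either direction. The median log2 fold change of the 7 was −0.16, and that of all genes tested was −0.0037.

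To compare genes with one another, counts were also divided by the length of all annotated exons of a gene (CPM per kilobase, RPKM). In control wells PEG10 had 259 RPKM, NDN 15.2, PPP1R9A 7.02, GRB10 5.76, SGCE 4.76, CDKN1C 2.96 and PLAGL1 0.383. The control ranges of neighbours in this order did not overlap among these 7 genes. MEST, PEG3 and MEG3 averaged 0.022 RPKM or less and could not be ordered. The order depended on the length used. With the longest transcript of each gene, SGCE came next after PEG10 at 15.8 RPKM, since its annotated exons together are much longer than any of its transcripts. PEG10 led under both lengths, also among all imprinted genes listed, where INPP5F (84.2 RPKM) and TFPI2 (70.4 RPKM) came next.

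Across the imprinted genes listed here, the 10 genes and 75 others described below, PEG10 carried much of the total. It made up 34.5%, 34.7% and 34.7% of the counts of these listed genes in the control wells and 22.2%, 21.2% and 19.4% in the vitamin C wells. The counts include reads from both parental copies, so this is not a share of imprinted transcription. The other listed genes together summed to 3275 ± 38.8 CPM in control wells and 3251 ± 71.8 CPM in vitamin C wells (SD, n = 3). That sum differed by less than the SD between wells.

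A list of 76 other imprinted genes was examined beside these, of which 75 had an identifier and 44 passed the filter. In edgeR's quasi-likelihood test, 6 were called higher and 4 lower, 22.7% of those tested, against 11.2% of all genes tested (6.09% higher and 5.09% lower). The median log2 fold change of the 44 was −0.04. Among the 19 tested genes listed as paternally expressed, 3 were higher and 1 lower (21.1% called). Among the 19 listed as maternally expressed, 3 were higher and 2 lower (26.3% called), against the same 11.2% of all genes tested. NTM, a neural cell adhesion protein, rose from 25.1 ± 2.09 to 34.5 ± 1.98 CPM (log2 fold change 0.47, edgeR adjusted p = 0.00123). ERAP2, a peptidase that trims peptides for antigen presentation, rose from 199 ± 2.56 to 234 ± 10.6 CPM (log2 fold change 0.23, edgeR adjusted p = 0.00565). GNAS, which encodes the stimulatory G protein alpha subunit, fell from 170 ± 5.21 to 136 ± 4.41 CPM (log2 fold change −0.31, edgeR adjusted p = 0.000771). NTM, ERAP2 and GNAS were called under all 14 alternative settings.

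A further 6 calls among imprinted genes were each lost in 4 to 6 of the 6 fits that left out 1 library. RB1, the retinoblastoma cell cycle regulator, was higher by 0.28 on the log2 scale (edgeR adjusted p = 0.0168). Its adjusted p was 0.0522 to 0.0939 when control replicate 1 or 3, or vitamin C 1 or 2, was left out. FAM50B was higher by 0.28 (edgeR adjusted p = 0.0296), and its adjusted p was 0.0506 to 0.125 without any control replicate or vitamin C replicate 1. COPG2, a coat protein subunit next to MEST, was higher by 0.26 (edgeR adjusted p = 0.0315), with 0.0585 to 0.129 when control replicate 2 or 3, or vitamin C 1 or 2, was left out. DIRAS3, a Ras-related protein, fell from 1.07 ± 0.332 to 0.388 ± 0.130 CPM (edgeR adjusted p = 0.0309). Its adjusted p was 0.0565 to 0.122 when control replicate 2 or 3, or any vitamin C well, was left out. TFPI2, a serine protease inhibitor, fell from 189 ± 7.91 to 166 ± 10.7 CPM (edgeR adjusted p = 0.0384), with 0.056 to 0.159 without any control replicate or vitamin C replicate 1 or 2. TP73, a relative of p53, fell from 6.70 ± 0.353 to 5.06 ± 0.381 CPM (edgeR adjusted p = 0.0387), with 0.0507 to 0.131 without each library in turn. The call of TP73 was also lost in DESeq2 (0.0876) and, in edgeR, without a filter on low counts (0.0748). The abundant genes INPP5F (641 and 632 CPM), IGF2R (528 and 511 CPM) and UBE3A (286 and 269 CPM) were not called, with 95% confidence intervals of −0.11 to 0.07, −0.17 to 0.08 and −0.18 to 0.00 on the log2 scale. The groups overlapped for INPP5F and IGF2R. For UBE3A all vitamin C wells were below all control wells, as for 14.9% of all genes tested.

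**Figure D3:**
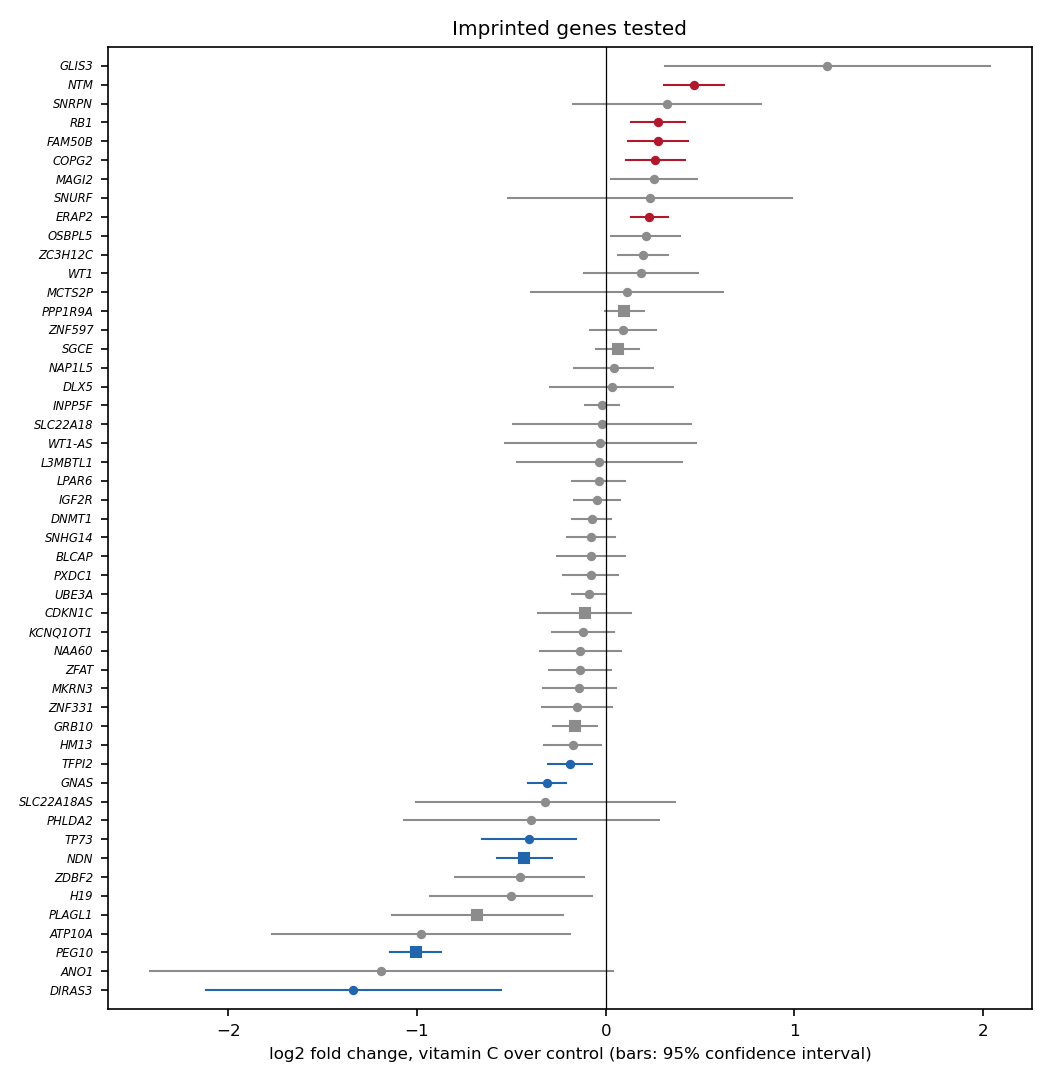
Log2 fold change, vitamin C wells over control wells, for the imprinted genes tested, with 95% confidence intervals. Squares mark 7 of the 10 genes and circles the others, with 1 gene left out, with red for genes called higher, blue for genes called lower and grey for genes not called, and PEG10 lies at −1.01.

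At the loci of the 10 genes, partners differed in level. The genes named are some of those listed at these loci, picked after their values were seen. At 15q11, 6 of 8 other listed genes were tested, and at 11p15 6 of 11, and none was called. All vitamin C wells were below all control wells for SNHG14, UBE3A and ATP10A (0.592 and 0.313 CPM) at 15q11. At 11p15 that held for H19 (2.84 and 1.96 CPM), while OSBPL5 went the other way. The other genes tested at either locus overlapped. Over all genes tested, 14.9% were below and 15.6% above. At 14q32, where MEG3 lies, DLK1, RTL1, MEG8, MEG9 and DIO3 had 0 to 8 counts in every library and none passed the filter. At 19q13, ZIM2, MIMT1 and USP29 beside PEG3 had 0 to 3 counts per library. At 7q32, MEST and its antisense MESTIT1 had 0 to 5 counts per library, while COPG2 had 32.1 ± 1.55 CPM in control wells. At 15q11, NDN and MKRN3 (11.5 and 10.5 CPM in control and vitamin C wells) were expressed, and MAGEL2 had 0 to 2 counts per library. SNHG14, the long transcript of that locus, stood at 40.7 ± 0.890 CPM in control and 38.5 ± 1.52 CPM in vitamin C wells and was not called (edgeR adjusted p = 0.455). At 11p15, KCNQ1OT1, the antisense RNA of the CDKN1C domain, stood at 133 ± 11.8 and 122 ± 12.7 CPM and was not called (edgeR adjusted p = 0.355), while IGF2 had 0 to 2 counts per library. Other genes on the same strand, INS-IGF2 among them, share 73.7% of the exon bases of IGF2, so its count does not show its level. At 6q24, HYMAI had 2 to 7 counts per library.

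Of the 46 annotated neighbours within 1.5 Mb of PEG10, 13 passed the filter, and 3 were called higher and 3 lower in edgeR, 46.2% against the background of 11.2%. CASD1, a sialic acid acetyltransferase that starts 147 kb from PEG10, rose from 69.9 ± 1.90 to 85.5 ± 0.360 CPM (log2 fold change 0.29, edgeR adjusted p = 0.00183). PDK4, a kinase that inhibits pyruvate dehydrogenase and starts 940 kb away, fell from 379 ± 13.2 to 203 ± 1.99 CPM (log2 fold change −0.90, edgeR adjusted p = 4.11e-08). PON2, a lactonase that starts 779 kb away, fell from 389 ± 15 to 319 ± 13 CPM (log2 fold change −0.29, edgeR adjusted p = 0.00165). The fall of TFPI2, on the other side of PEG10, is given above. SGCE and PPP1R9A, between CASD1 and PON2, were not called. ASB4, a subunit of ubiquitin ligases, was higher by 0.30 (edgeR adjusted p = 0.0302, DESeq2 adjusted p = 0.0555), with 0.0576 to 0.132 without any control replicate or vitamin C replicate 1 or 2. DYNC1I1, a dynein subunit, was higher by 0.31 (edgeR adjusted p = 0.0166), with 0.0522 to 0.081 without any control replicate or vitamin C replicate 2. VPS50, GNG11, BET1 and SLC25A13 were not called, with log2 fold changes of 0.03, −0.02, 0.16 and 0.04.

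**Figure D4:**
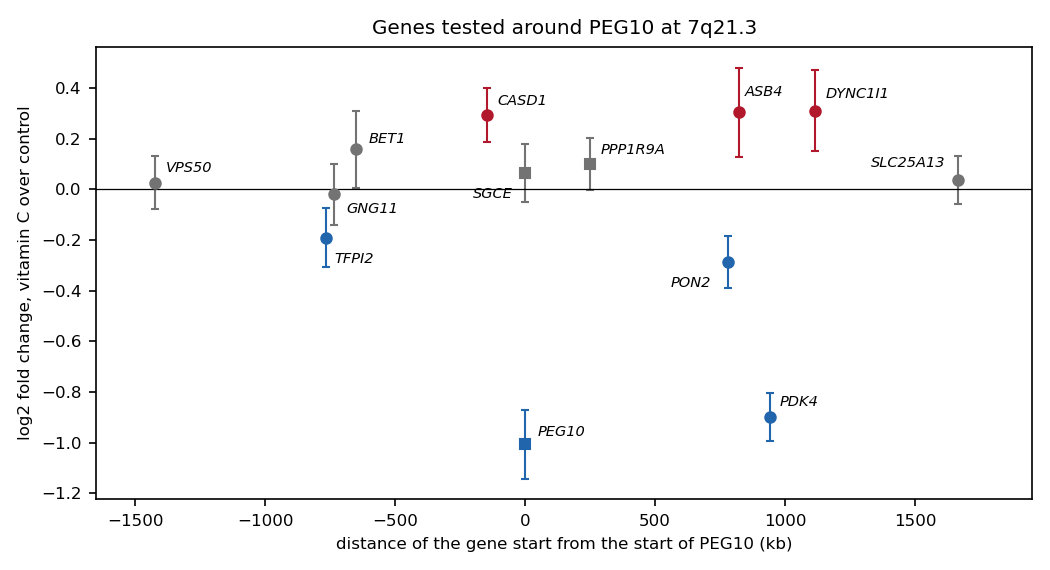
Log2 fold change, vitamin C wells over control wells, with 95% confidence intervals, for genes tested within 1.5 Mb of PEG10, against the distance of each gene start from the start of PEG10 in kb. Squares mark PEG10, SGCE and PPP1R9A, red marks genes called higher, blue those called lower and grey those not called, and unnamed clones are left out.

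Factors that set, keep or remove methylation at imprinted regions were examined as a list of 24 genes. Of these, 18 passed the filter, and 1 was called higher and 1 lower, 11.1% against 11.2% of all genes. TET1, an oxidase of methylated cytosine, fell from 58.2 ± 4.01 to 43.7 ± 4.34 CPM (log2 fold change −0.41, edgeR adjusted p = 0.00355). DNMT3A, a DNA methyltransferase, rose from 46.1 ± 1.03 to 52.6 ± 1.58 CPM (log2 fold change 0.19, edgeR adjusted p = 0.0426). That call was lost with upper quartile scaling (0.0502), without a filter on low counts (0.0718), and without any control replicate or vitamin C replicate 1 or 2 (0.0778 to 0.157). DNMT1, which copies methylation after replication, stood at 182 ± 5.87 and 172 ± 7.66 CPM and was not called. YY1, whose log2 fold change was 0.01 with a 95% confidence interval from −0.08 to 0.11, was not called, nor were ATRX and ARID4B. ZFP57 had 0 counts in every library and did not pass the filter.

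PEG10 has relatives among other genes derived from retrotransposon gag sequences. Of 24 such genes 11 passed the filter, and 1 was called, PNMA8A, which fell from 6.33 ± 1.01 to 3.76 ± 0.401 CPM (log2 fold change −0.72, edgeR adjusted p = 0.00697). RTL6 stood at 34.1 ± 1.5 and 30.1 ± 1.94 CPM, RTL10 at 13.2 ± 0.244 and 12.4 ± 1.09, RTL8C at 8.34 ± 0.291 and 8.54 ± 0.492 and PNMA1 at 18.9 ± 1.27 and 19.4 ± 2.27, in control and vitamin C wells. These 4 were not called, and RTL8C has near-identical copies between which reads are uncertain. The share called was 9.09%, against 11.2% of all genes.

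SGCE belongs to the dystrophin-associated complex, and 11 of 14 other genes of that complex passed the filter, with 1 higher and 2 lower, 27.3% against 11.2% of all genes. SSPN, the small membrane protein sarcospan, rose from 3.67 ± 0.276 to 6.39 ± 0.127 CPM (log2 fold change 0.82, edgeR adjusted p = 0.000868). DAG1, which encodes dystroglycan, fell from 208 ± 3.74 to 179 ± 6.34 CPM (log2 fold change −0.22, edgeR adjusted p = 0.00707). DTNA, a dystrobrevin, fell from 11.9 ± 1.05 to 8.51 ± 1.26 CPM (edgeR adjusted p = 0.0175), with 0.0578 to 0.0754 when control replicate 2 or 3, or vitamin C 1 or 2, was left out. UTRN, SNTB1 and SNTB2 were not called.

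Of 15 paralogues of the members, 10 passed the filter, with 1 higher and 1 lower, 20% against 11.2% of all genes, and both are MAGE family relatives of NDN. MAGED2 rose from 34.4 ± 0.661 to 41.0 ± 0.949 CPM (log2 fold change 0.25, edgeR adjusted p = 0.0132), with 0.055 and 0.0617 without control replicate 2 or 3. MAGED1 fell from 74.8 ± 0.671 to 63.0 ± 5.66 CPM (log2 fold change −0.24, edgeR adjusted p = 0.0258), with 0.0756 to 0.0963 without any control replicate. MAGEF1, PPP1R9B, a second neurabin gene, and CDKN1B, which encodes p27, were not called.

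Genes with levels most like PEG10 over the 6 libraries were sought among 9065 genes of at least 10 CPM on average. The highest Pearson correlations belonged to GHR (0.9999), ANTXR1 (0.9993), SPCS1 (0.9976), PELI1 (0.9965) and PTPRZ1 (0.9964). These values describe 6 libraries that form 2 groups, so any gene lower in the vitamin C wells with small spread gets a high value. GHR, the growth hormone receptor, fell from 66.4 ± 0.506 to 43.8 ± 2.65 CPM (log2 fold change −0.60). PTPRZ1, a receptor phosphatase, fell from 127 ± 3.03 to 82.2 ± 5.59 CPM (log2 fold change −0.63). Both were picked for their likeness to PEG10 in these same libraries, so no test is given for them. Among the imprinted genes, NDN came nearest (0.9878), then GNAS (0.9819) and GRB10 (0.9688). They ranked only 32, 61 and 148 among the 9065 genes. Of the members at the locus of PEG10, SGCE had −0.67 and PPP1R9A −0.97.

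The 6 libraries held 16248869 to 41884588 counts. Melanocyte markers were present in all, and summed to 3385 to 3513 CPM in control and 3207 to 3356 CPM in vitamin C wells, with MITF at 527 and 507 CPM. Of these 13 markers, 5 were called in edgeR, beside 11.2% of all genes tested. MLANA rose from 1.54 to 15.4 CPM, PMEL from 89.2 to 148 CPM, TYR from 126 to 153 CPM and PAX3 from 31.7 to 40.2 CPM, while DCT fell from 1515 to 1234 CPM. Markers of other cell types were low. Their sums separated the groups, as did the sum of the melanocyte markers. Of all single genes tested, 30.6% separated the groups in either direction. Fibroblast markers summed to 9.94 to 12.1 CPM in control and 13.5 to 16.6 CPM in vitamin C wells, epithelial markers to 1.73 to 2.07 and 2.47 to 2.91 CPM, and blood cell markers to 8.66 to 10.2 and 6.81 to 6.92 CPM. Of the fibroblast markers, COL3A1 rose from 1.83 to 3.11 CPM and PDGFRB from 0.817 to 2.45 CPM, and both were called. DCN was higher without a call (1.89 and 3.04 CPM). PDGFRA, the most abundant, was lower without a call (5.54 and 4.95 CPM). COL1A1 (0.470 and 0.452 CPM), COL1A2 (0.552 and 0.514 CPM) and THY1 (0.110 and 0.039 CPM) were also lower. COL1A1 was not called, and COL1A2 and THY1 did not pass the filter. LYZ fell from 8.10 to 5.75 CPM and made up most of the blood sum. Of the epithelial markers, only KRT14 and CLDN4 passed the filter, and neither was called. KRT14 stood at 1.31 CPM in control and 1.74 CPM in vitamin C wells. Over the 3 wells of each group, CDH1 had 6 counts in control and 30 in vitamin C wells, and KRT19 had 1 and 3. CLDN4 had 39 and 37 counts, KRT5 had 3 and 2, and EPCAM had 8 in each group. The part of these markers in the results for imprinted genes was not tested.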

How the data were processed

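RNA from 3 control and 3 vitamin C wells was depleted of ribosomal RNA and sequenced in pairs, and the authors deposited whole-number counts of reads per gene, without normalization. STAR, HTSeq and GENCODE v19 are named in the paper, and CASAVA 1.4, Trim Galore, STAR and hg38 in the processing notes of the submitters. No source used here says if the counting was by strand, so exons shared by genes on both strands have uncertain counts. Symbols, coordinates and lengths came from GENCODE 29, which held 57055 of the 60675 identifiers.

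The fit used edgeR 4.0.16 in R 4.3.3 (filterByExpr, TMM, quasi-likelihood test of vitamin C against control, no other term). Calls needed an adjusted p (Benjamini-Hochberg, over the 16353 genes tested) under 0.05. Groups came from the sample titles. The members and lists were chosen with earlier results of these data known. Genes named were all members, up to 10 called genes and the 4 most abundant of each list, tested genes within 1.5 Mb of PEG10 and the 5 genes most like PEG10. Clone names were passed over, the result of 1 gene that this rule takes is not reported here, and partners at members' loci were added after their values were seen. Alternatives were RLE, upper quartile and library size scaling, no filter, at least 10 counts in every library, DESeq2 1.42.0, limma-voom (limma 3.58.1), the replicate number as a block and each library left out. Wells of a group differed beyond sampling noise (lowest chi-square over its degrees of freedom 2.70). The fit was tested on simulated data.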

Additional observations from a re-analysis of the deposited data

How the results depend on the processing

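The log2 fold change of PEG10 ran from −1.08 to −0.92 over the 14 alternatives, which reuse the values that chose it. PLAGL1 was called in 4 of the 14 (no filter, limma-voom, the replicate block and without vitamin C replicate 2) and GRB10 in 1 (upper quartile scaling). No named gene changed direction where it was called. With single libraries left out, 964 to 2095 genes were called over all genes (549 to 1184 higher and 411 to 911 lower), against 1829 with all libraries. The lists moved likewise. Of the other imprinted genes, 3 to 7 were higher and 1 to 3 lower, of the neighbours of PEG10 1 to 3 were higher, of the imprint factors 0 to 1 was higher, of the dystrophin-associated complex 1 to 2 were higher and 1 to 2 lower, and of the paralogues 0 to 1 was higher and 0 to 1 lower. These fits had fewer samples. The imprint factor called higher, DNMT3A, was also lost with upper quartile scaling, without a filter and with the replicate block (0 called higher in each), and the cause was not tested. Of all calls, 54.5% were higher with TMM, 48.1% with upper quartile scaling and 59.4% by library size alone, while the median log2 fold change of all genes moved by less than 0.1.

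The replicate numbers were not shown to pair the wells, since same-numbered wells correlated in their deviations at 0.06, 0.04 and 0.20, and control replicate 1 correlated better with vitamin C replicate 2 (0.14). With the replicate number as a block, the log2 fold change of PEG10 was −1.01, PLAGL1 and SNTB1 (edgeR adjusted p = 0.0436) were called lower, which took the dystrophin-associated complex to 3 lower, and DNMT3A was no longer called (edgeR adjusted p = 0.0536). The depth of 16248869 to 41884588 counts limits what can be said of PEG3, MEST and MEG3, and 3 wells of 1 cell line in each group limit the precision of every difference.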
